A study of Arabidopsis thaliana with 12 samples.

Results

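The comparison set sfps-2 seedlings against wild type after red light, and its libraries were chosen by genotype and light as the labels give them. It used 6 of the 12 libraries of the series, 3 from wild-type Col-0 and 3 from sfps-2, a knockout of SFPS (AT1G30480) in the Col-0 background. The other 6 libraries came from the same genotypes kept in the dark, and they are used below only to show where the red-light comparison differs. All seedlings were 4 days old. Seeds of both genotypes were stratified in the cold without light on sucrose-free Murashige and Skoog agar, were given white light for 3 h to start germination, and were then grown in darkness. The red-light groups afterwards received 3 h of continuous red light at 7 μmol m-2 s-1. RNA was taken from whole seedlings, and stranded libraries were made from total RNA after removal of ribosomal RNA. The labels do not say whether the 3 libraries of a group came from separate cultures, so the p-values below measure the spread between these libraries, which may be technical. A single mutant allele was used, so differences due to SFPS cannot be told apart from other differences between the lines.

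SFPS is a G-patch domain protein that works with the spliceosome and with RRC1, an RNA-binding protein that is itself known from phytochrome signalling. The spliceosome removes introns from pre-mRNA by joining a donor site at the start of the intron to an acceptor site, usually AG, at its end, and U2AF recognises the acceptor together with the pyrimidine-rich stretch before it. Red light activates phytochrome B, which ends growth in the dark form and starts greening.

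The alternative acceptors that moved most showed what was measured at a single splice site. In each stretch below the intron runs in from the left, both AG acceptors are in capitals, and the letters between them are included in the mRNA when the acceptor nearer to the donor is used. All of these lie in the coding part of their genes, at chr2:629498-629548 on the plus strand for GSTZ1, chr3:21622384-21622434 on the plus strand for AT3G58450, chr1:6681491-6681535 on the minus strand for AT1G19330, chr5:14236378-14236426 on the minus strand for HCF109 and chr5:19125970-19126008 on the minus strand for CKB1. Coordinates are those of TAIR10 and the letters were read from RefSeq's TAIR10.1, on which 932 of the 938 listed intron bins (99.36%) equalled an annotated intron to the base.

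GSTZ1: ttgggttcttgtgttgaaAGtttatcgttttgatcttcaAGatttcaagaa

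AT3G58450: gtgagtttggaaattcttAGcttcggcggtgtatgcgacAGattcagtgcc

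AT1G19330: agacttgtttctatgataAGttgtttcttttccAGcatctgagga

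HCF109: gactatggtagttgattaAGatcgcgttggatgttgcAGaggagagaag

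CKB1: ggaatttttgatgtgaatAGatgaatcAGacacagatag

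GSTZ1 encodes a zeta-class glutathione transferase of tyrosine breakdown. The share of its junction reads that included the 21 bases between the acceptors was 7.4%, 8.1% and 4.0% in the wild-type libraries and 66.6%, 61.1% and 64.7% in the sfps-2 libraries. The groups lay far apart, and the gene moved from mostly the farther acceptor to mostly the nearer one, a rise of 57.8 points (limma on log odds, adjusted p = 3.5e-04). AT1G19330, annotated as a subunit of a histone deacetylase complex, rose from 31.2%, 22.9% and 29.7% to 83.3%, 78.9% and 79.2% at acceptors 15 bases apart. AT3G58450, an adenine nucleotide alpha hydrolase-like protein, rose from 49.6%, 32.4% and 30.3% to 89.0%, 91.3% and 83.1%, with the acceptors again 21 bases apart. In both genes every sfps-2 library lay above every wild-type library. HCF109, a release factor of chloroplast translation, used the nearer acceptor in 2.9%, 4.5% and 2.1% of reads in wild type and in 52.2%, 56.6% and 56.3% in sfps-2. Its acceptors are 19 bases apart, which is not a multiple of 3, so the choice changes the reading frame. CKB1, a regulatory subunit of casein kinase 2, moved the other way. The 9 bases between its acceptors were included in 93.5%, 89.4% and 91.5% of reads in wild type and in 43.7%, 40.6% and 46.0% in sfps-2. None of these 5 genes was called different in total expression.

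**Figure D1:**
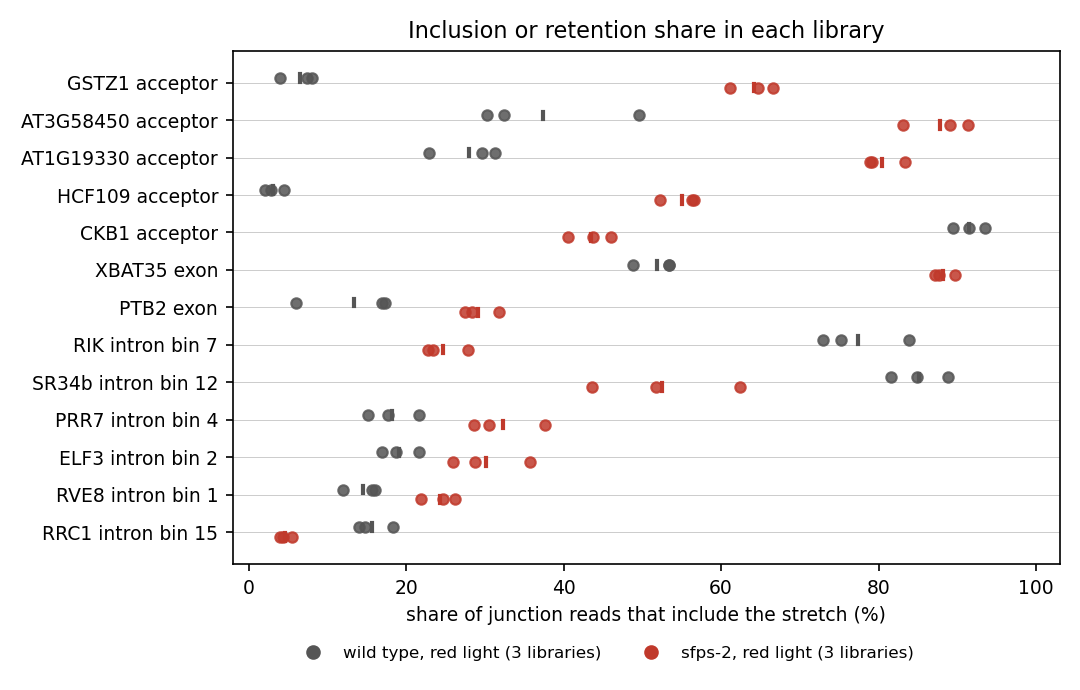
Share of junction reads (percent) that include the named stretch, with 1 point per library and a bar at each group's mean, for 3 wild-type and 3 sfps-2 libraries after red light. Intron bins carry the authors' bin number. In the acceptor of GSTZ1 the wild-type points lie between 4.0% and 8.1% and the sfps-2 points between 61.1% and 66.6%, and no stretch shown has overlapping groups.

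The authors' list for this comparison held 992 splicing events in 827 genes, each with an FDR under 0.05 and a change of 3 points or more. An event is a bin, a stretch of exon or intron, and its share is the part of the junction reads across it that include it. Bins below the thresholds were not analysed here, so the counts describe the listed events only. Of these, 682 had a higher share in sfps-2 and 310 a lower one. Introns made up most of the list. Of 788 intron bins that overlap no other intron, 557 were more retained in sfps-2 and 231 less. Of 100 introns that overlap other introns, 63 were more retained and 37 less, and of 51 introns annotated as retained in some transcripts 25 were more and 26 less retained. Exon events were few. They comprised 28 alternative acceptors, of which 21 had a higher share of the stretch between the sites, 6 alternative donors, 11 skipped exons, of which 9 were included more often in sfps-2, and 8 exon bins of no stated type.

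The changes of exon events were wider than those of intron bins that overlap no other intron. The median rise of such an intron bin was 6.47 points and the median fall 7.82 points by size, against 21.3 and 16.4 points for alternative acceptors. Introns annotated as retained had a median rise of 6.35 points and a median fall of 16.7 points by size. Across all listed events the SD between libraries of a group had a median of 1.82 points in wild type and 2.44 points in sfps-2. All 3 sfps-2 libraries lay above all wild-type libraries in 575 events (58% of the list) and below them in 269 (27.1%), and in 148 the groups overlapped. A limma fit to the log odds per library called 556 events higher (56%) and 258 lower (26%) at an adjusted p under 0.05. Because the events were chosen for a difference between the same libraries, these shares describe the list and are no independent test. Libraries held 418956 to 518921 junction reads over the listed events. Measured from the median share of its group's 3 libraries, sfps-2 replicate 3 lay farthest, by 2.39 points on average against 1.67 to 1.97 in the other 5. With 3 libraries against 3 an exact permutation test of one event cannot go below 0.1.

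**Figure D2:**
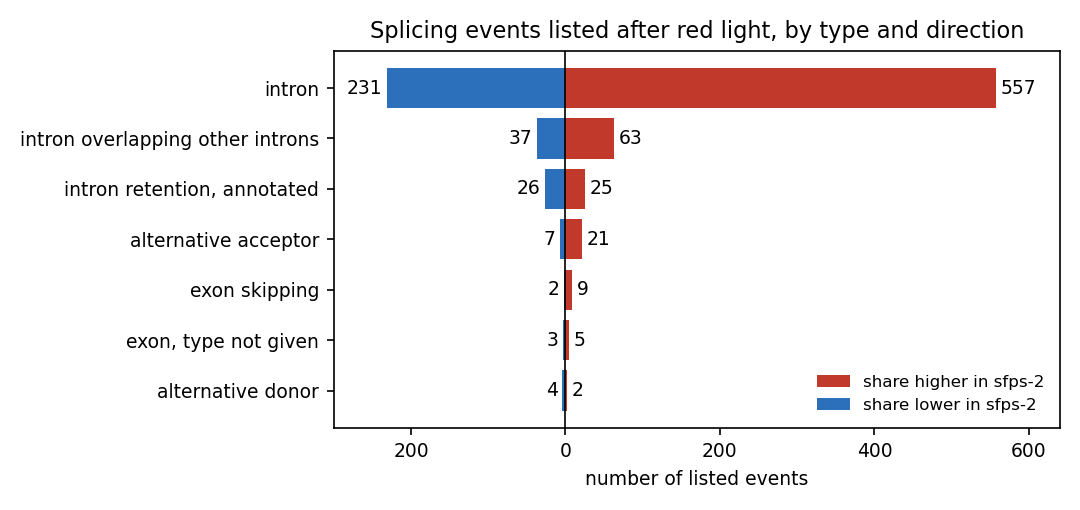
Number of listed splicing events by type after red light, with events whose share was higher in sfps-2 to the right and lower to the left. Introns that overlap no other intron dominate, with 557 higher and 231 lower, and alternative acceptors count 21 higher and 7 lower.

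Among the 28 acceptor pairs, 22 were under 50 bases apart and the median distance was 26.5 bases. In the 21 genes that used the nearer acceptor more in sfps-2 the distance was a multiple of 3 in 5. In the 7 genes that used it less the distance was a multiple of 3 in 6. Only 8 of the 21 and 4 of the 7 lay solely in the coding part. The counts over all pairs therefore do not describe changes of reading frame. UBA2A, an RNA-binding protein of abscisic acid responses, rose by 37.3 points at acceptors 14 bases apart in its 3′ UTR, from 35.5% ± 12.2 to 72.6% ± 4.81 (SD, n = 3 libraries). SKIP, a component of the spliceosome and of clock regulation, rose by 13.2 points, from 13.3% ± 0.517 to 26.5% ± 3.41. The groups did not overlap in either gene, and neither gene was called different in expression. The letter before the AG, a C or T at most acceptors, was compared between the sites that gained and lost use, as a description of few pairs. In the 27 pairs with AG at both sites, the acceptor used more in sfps-2 had C in 11, T in 7, A in 7 and G in 2, while the one used less had C in 18, T in 7, A in 2 and G in none. AT1G19330 and HCF109, printed above, are among the cases with A before the acceptor used more, and both had C before the one used less. GSTZ1 had A before both acceptors.

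Retained introns could be compared at the same position. Of the introns more retained in sfps-2, 384 of 556 (69.1%, 95% Wilson interval 65.1 to 72.8) had C before the final AG and 30 (5.4%, 3.81 to 7.6) had A. Of those less retained, 114 of 231 (49.4%, 43 to 55.8) had C and 51 (22.1%, 17.2 to 27.9) had A. All 113942 annotated introns of the genes tested for expression had C in 65.2% and A in 6.61%. The interval for A in the less retained introns lay above that in the more retained ones and above the annotated share. T differed less, at 25.4%, 28.1% and 27.6%. Introns of 1 gene are not independent, and the intervals cover counting error only.

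The introns differed in wild type as well. The more retained introns had a median share of 7.13% in wild type and the less retained ones 18%, so the same position was read within ranges of the wild-type share. Below 10%, A stood before the AG in 21 of 378 more retained introns (5.56%) and in 7 of 41 less retained ones (17.1%). From 10% to 30% it did so in 7 of 150 (4.67%) and 33 of 132 (25%). From 30% it did so in 2 of 28 (7.14%) and 11 of 58 (19%). The share with A was higher in the less retained introns in all 3 ranges. Lengths did not differ in this way, with medians of 172 bases for the more retained and 163 for the less retained introns, both above the 102 bases of all annotated introns. Introns listed by the authors needed enough reads to be tested, which the annotated set did not.

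**Figure D3:**
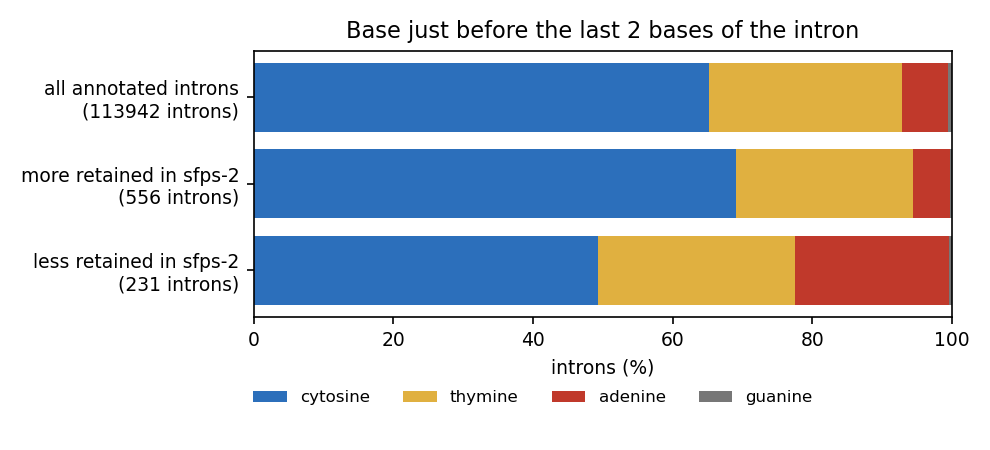
Percent of introns with each base just before the last 2 bases of the intron, for all annotated introns of the tested genes and for listed introns more or less retained in sfps-2 after red light. Adenine fills 22.1% of the bar of the less retained introns, 5.4% of that of the more retained ones and 6.61% of that of all annotated introns.

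The ends of single introns show both kinds. Each stretch below is the last 20 bases of an intron and the first 10 of the next exon in the coding part, with the last 3 bases of the intron in capitals. The first 3 fell most in retention among introns with A before the AG and 10 reads or more in every library. This ranking covered only introns of the coding part that overlap no other intron and are not annotated as retained. The others are among the widest rises or lie in genes described below.

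AT2G32640 intron 9 of 16, chr2:13848667-13848696, minus strand: cctgatgtcttttggcaAAGggagtctctc

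AT5G22860 intron 2 of 8, chr5:7642095-7642124, minus strand: tttttttcatggtataaAAGtgttagcggc

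AT5G23870 intron 12 of 13, chr5:8046176-8046205, minus strand: tttttcttttgttattcAAGgcttctaatg

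AT1G69450 intron 8 of 9, chr1:26107609-26107638, minus strand: aattgtgttttgcgatgCAGtttatgaatg

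HCF107 intron 5 of 7, chr3:5810250-5810279, minus strand: gaaagtgtattccggttTAGgcttggggtt

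RIK intron 7 of 10, chr3:11291875-11291904, plus strand: gttggctttcgtacatgCAGgatcagtata

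RVE8 intron 1 of 7, chr3:2946905-2946934, plus strand: tactcctctatgttcctTAGgtttgatcgt

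Retention of the AT2G32640 intron fell from 50.8% ± 5.03 to 18.21% ± 9.03 (SD, n = 3), and that of the AT5G22860 intron from 27.4% ± 3.30 to 8.82% ± 1.79. In AT5G23870 it fell from 42.8% ± 0.978 to 25.3% ± 2.36. In AT1G69450 it rose from 29.9% ± 2.47 to 64.7% ± 2.79, and in HCF107, a protein needed for chloroplast mRNA stability, from 19.2% ± 2.29 to 45.7% ± 6.46. All 5 had groups that did not overlap. The fall in RIK, a KH-domain RNA-binding protein, was wider than that of any other intron bin and came at a C. Its intron of 260 bases was retained in 73.0%, 75.2% and 83.8% of reads in wild type and in 23.4%, 22.8% and 27.8% in sfps-2. AT4G38225, annotated as a glycerol kinase, fell by 44.3 points at an intron of 163 bases. The SFPS gene itself had its first intron read as retained in 100% of the 9, 4 and 5 reads of the sfps-2 libraries, and its expression fell from 7.90 to 1.93 FPKM.

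The exons and annotated retained introns that follow had some of the largest changes of their event types. XBAT35, a ubiquitin ligase with isoforms that differ by an exon, included that exon of 72 bases (chr3:8323099-8323170) in 53.4%, 53.4% and 48.9% of reads in wild type and in 87.6%, 87.2% and 89.7% in sfps-2. AMSH2, a deubiquitinating enzyme, included an exon of 34 bases in 7.96% ± 3.38 and 32.4% ± 3.32. FC2, a kinase of the LAMMER family that phosphorylates SR splicing proteins, included an exon of 190 bases in 67.9% ± 3.02 and 48.2% ± 5.82. Retention of an annotated intron of GSK1, a kinase of the shaggy-like family, fell from 70.3%, 71.3% and 80.6% to 33.2%, 31.2% and 37.6%. PAI3, an enzyme of tryptophan synthesis, fell from 65%, 80% and 76.5% to 31.6%, 16.7% and 14.3%, with few reads behind each value. None of these genes was called different in expression. Donor changes were smaller. The change of AT5G17530, 31.7% ± 1.04 against 14% ± 3.35, did not overlap between groups, and that of AT2G34315, 48.7% ± 10.2 against 67.8% ± 11, did.

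Genes of splicing, light signalling and the clock, with SFPS itself and RRC1, held 22 listed events. A listed event lay in 6 of 22 clock genes, 7 of 30 splicing regulators and 3 of 35 light signalling genes. ELF3 is in both the clock and the light signalling list. Of all 20867 tested genes 817 (3.92%) held a listed event. Those 817 had a median of 21.5 FPKM in wild type, against 12.2 for all tested genes. The lists were not compared with genes of matched expression. SR34b, an SR protein, had an intron of 387 bases retained in 84.8%, 81.6% and 88.8% of reads in wild type and in 51.7%, 62.3% and 43.6% in sfps-2. PTB2, a polypyrimidine tract-binding protein, included an exon of 58 bases in 6.1%, 17% and 17.3% and in 28.3%, 31.8% and 27.4%. RS40, an RS-rich splicing protein, fell at an exon of 257 bases from 24.7%, 19.7% and 17.5% to 11.3%, 11.5% and 11.8%. The groups were apart in all 3. Most changes in clock genes were rises, of 14.1 points in an intron of PRR7, of 10.4 points in an intron of 1180 bases in ELF3, of 9.47 points in the first intron of RVE8 of 7.63 points in an intron of TOC1, of 7.00 points in another intron of RVE8, of 6.71 points in CCA1, of 5.48 points in another intron of ELF3 and of 3.55 points in LNK2. For RVE8 the values were 16.0%, 12% and 15.6% in wild type and 26.2%, 24.7% and 21.9% in sfps-2. PRR7 also had an intron whose retention fell by 7.31 points. Of light signalling genes, FHY1, which carries phytochrome A into the nucleus, rose by 4.76 points and PIF3, a transcription factor removed by phytochrome, fell by 4.75 points at 1 intron each. RRC1 was less retained at 3 introns, the most changed of which fell from 14.7%, 14% and 18.3% to 4.0%, 5.5% and 4.4%.

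Expression and retention were compared gene by gene. Expression was available as 1 FPKM value per group from the authors' tables, with no value per library and so no error beside a level. Genes count as higher or lower here where q in the authors' deposited table was below 0.05 and FPKM changed by 1.5 times or more. Of 20867 genes tested, 685 were higher in sfps-2 (3.28%) and 673 lower (3.23%), 6.51% in all, with a median log2 change of -0.02. Of the 1358 called genes 64 (4.71%) held a listed event, near the share of all 20867 tested genes, with 817 (3.92%). Called genes had a median of 4.84 FPKM in wild type, against 12.2 for tested genes and 21.5 for those with a listed event. These shares were not compared at matched expression. Of 540 genes whose listed introns were all more retained, 19 were called higher (3.52%) and 29 lower (5.37%). Of 235 whose listed introns were all less retained, 10 were higher (4.26%) and 4 lower (1.7%). Where a gene had several such introns the counts were more uneven. Of 50 genes with at least 2 introns, all more retained, 2 were higher (4%) and 10 lower (20%), with a median log2 change of -0.25. Of 20 genes with at least 2, all less retained, 4 were higher (20%) and none lower, with a median of 0.19.

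The lower genes with several retained introns included enzymes and transporters. F2KP, which makes and breaks down fructose 2,6-bisphosphate, had 6 more retained introns and fell from 57 to 34.9 FPKM, a log2 change of -0.71. KEA1, a potassium exchanger of the chloroplast envelope, had 5 and fell from 34.7 to 17.1 FPKM. PUB4, a ubiquitin ligase, had 3 and fell from 20.9 to 10.5 FPKM, with retention of one of its introns at 13.8% ± 3.86 and 39.2% ± 2.71. The junction reads that join exons at the listed introns gave a value per library. They are given as RPM of the listed junction reads of a library. For PUB4 they were 1226, 1222 and 1079 RPM in wild type and 299, 340 and 368 in sfps-2. For KEA1 they were 3178, 2814 and 3455 against 1680, 1855 and 1506, and for F2KP 8745, 7915 and 8286 against 4572, 5465 and 4363. The groups were apart in each gene. These reads fall both when a transcript is rarer and when its intron stays, so they are no separate measure of level. RRC1 ran the other way, with 15.3 and 24.7 FPKM and with 1143, 1100 and 1068 spliced RPM in wild type against 2202, 2411 and 2552 in sfps-2. Over the 64 called genes with events, spliced reads were apart in the called direction in 22 of 31 higher and 24 of 33 lower genes. AT2G25590, called lower, had more spliced reads in every sfps-2 library.

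Genes of roots and of the cell wall were among those higher in sfps-2. These lists and the 5 product-based lists named here were described with their values known, and they get no test of their own. Of 18 root cell markers tested, 8 were higher and none lower, with a median log2 change of 0.83 against -0.02 for all genes. Only 11 of the 18 changes were positive, and the 8 called were at 5.17 FPKM or less in both genotypes. The abundant markers were lower in sfps-2 without being called, with PYK10, a glucosidase of root ER bodies, at 3402 and 2738 FPKM, NRT1.1, a nitrate transporter, at 160 and 117 FPKM, and CASP1, a protein of the endodermal barrier, at 223 and 162 FPKM, so the summed level of the list went from 3911 to 3140 FPKM. Of 15 genes annotated as root hair specific, 11 were higher and none lower, with a median of 1.44. Levels were low. RHS13 had the highest, rising from 3.94 to 11 FPKM, and RHS19 had 2.05 and 6.37 FPKM. PRP3, a proline-rich wall protein of root hairs, rose from 0.869 to 3.51 FPKM. EXPA7 and EXPA18, expansins that loosen root hair walls, rose by log2 1.46 and 1.28. LRX1, an extensin that shapes root hairs, rose by 1.82, COBL9 of root hair growth by 1.26, and PLT2, a transcription factor of the root stem cell region, by 1.35. In extracts of whole seedlings more cells of a type and more RNA per cell cannot be told apart. None of 10 leaf and guard cell markers was called, with a median of -0.21. Of 9 extensin-like genes 5 were higher, among them AT3G54580 at 0.740 and 3.91 FPKM, and 1, AT1G26250, was lower.

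Enzymes that modify the wall split by direction. Xyloglucan endotransglucosylases cut and rejoin xyloglucan, and 7 of 29 were higher and 3 lower. The higher ones included XTH25 (log2 2.73), XTH26 (2.59), XTH13 (2.29) and XTH21 (2.1), all at 1 FPKM or less in wild type. XTH17 fell from 226 to 123 FPKM and XTH18 from 77.4 to 42.6 FPKM. Of 20 expansins tested 2 were higher, EXPA7 and EXPA18, and 2 lower, EXPA16 (log2 -1.12) and EXPA4 (-1.05). Of all tested genes 3.28% were called higher and 3.23% lower. Class III peroxidases, secreted enzymes that cross-link wall polymers or form reactive oxygen, had 12 higher and 14 lower of 55 tested. The higher members included AT3G49960 at 0.460 and 3.4 FPKM and AT2G38390 at 4.31 and 19.7 FPKM. The lower ones included the neighbours AT5G64100, AT5G64110 and AT5G64120, of which AT5G64120 fell from 426 to 55.0 FPKM and AT5G64100 from 402 to 99.6 FPKM. Laccases, which oxidise lignin precursors, had 5 higher of 12 tested, with LAC17 at 16.2 and 28.2 FPKM, and 2 lower, with LAC7 at 18.5 and 6.66 FPKM.

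**Figure D4:**
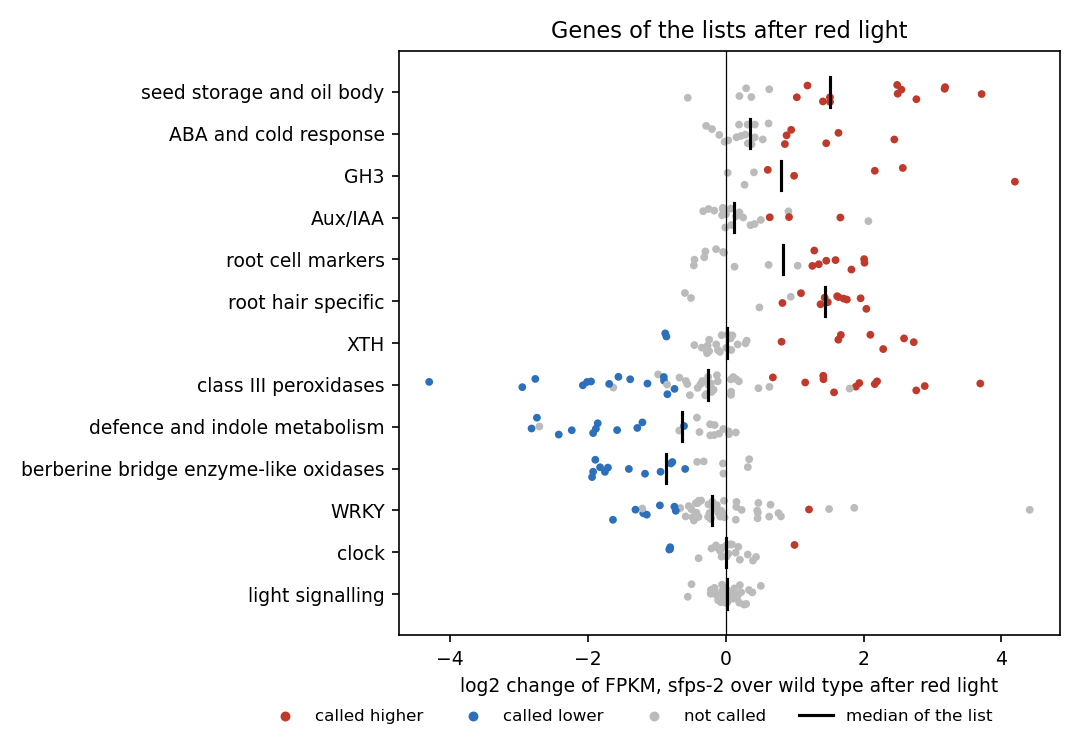
Log2 change of FPKM, sfps-2 over wild type after red light, for the genes of 13 lists, with called genes in colour, others in grey and a bar at each list's median. The medians lie at 1.51 for seed storage and oil body genes, 1.44 for root hair specific genes and 0.01 for light signalling genes, none of which was called.

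Of 24 genes of defence and indole metabolism 11 were lower and none higher, with a median log2 change of -0.64. THI2.2, a thionin, an antimicrobial peptide, fell from 51.9 to 7.35 FPKM. MYB15, a transcription factor of lignin and defence genes, fell from 10.04 to 1.5 FPKM, and PR1, the salicylic acid marker, by log2 1.28. The fall of GSTF7 (326 to 69.1 FPKM) and that of GSTF6 (146 to 40.3 FPKM) are uncertain as separate values, since these glutathione transferases are near-identical copies. CYP79B2, which starts indole glucosinolate and camalexin synthesis, was at log2 -0.23 and was not called. Of 18 berberine bridge enzyme-like oxidases 12 were lower and none higher, with a median of -0.87. AT1G30720 fell from 78.5 to 21.1 FPKM and AT4G20860 from 122 to 54.0 FPKM. AT1G26380, AT1G26390, AT1G26410 and AT1G26420 were neighbours among the tested genes on chromosome 1, from 9126737 to 9143336. All fell, the longest run of neighbouring tested genes called in 1 direction. Among WRKY transcription factors 7 of 55 were lower, WRKY28 by log2 1.64 and WRKY72 by 1.31, and 1, WRKY42, was higher. Of 30 lectin receptor kinases, membrane proteins of immune sensing, 9 were lower and none higher.

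Hormone genes changed in small numbers. Of the 8 GH3 genes on the list, which join amino acids to auxin and related acids, 5 were higher. The product name auxin-responsive GH3 family protein covered 14 tested genes, of which 6 were higher and none lower, with a median log2 change of 0.51. GH3.1 rose from 0.710 to 13 FPKM, GH3.3 from 6.30 to 37.4 FPKM and PBS3, the member of salicylic acid synthesis, from 0.590 to 2.64 FPKM. MES17, an esterase that frees auxin from its methyl ester, rose from 2.05 to 23.3 FPKM, and TAR2, an enzyme of auxin synthesis, fell by log2 0.90. Of 22 Aux/IAA repressors IAA5 (log2 1.66), IAA1 (0.92) and IAA29 (0.64) were higher, and of 70 SAUR genes 4 were higher and none lower, against 3.28% of all genes called higher. Of 23 ethylene and jasmonate genes only the ethylene synthesis genes ACS4 and ACS8 were called, both higher, at 0.442 and 0.662 FPKM in sfps-2. Of 25 gibberellin and brassinosteroid genes only GA20OX2, a synthesis enzyme (log2 1.4), and RGL2, a DELLA repressor of germination (0.90), were called, both higher. The counts for SAUR, ethylene and gibberellin genes lie near the share of all genes.

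AIR1, a small proline-rich protein first found in auxin-treated root cultures, rose from 175 to 2570 FPKM, a log2 change of 3.87, and its neighbour AT4G12545 from 48.0 to 514 FPKM. In the same cluster AZI1, which acts in systemic immunity, fell from 40.2 to 12.6 FPKM and AT4G12520 from 92.9 to 57.8 FPKM, the latter uncertain because a near-identical copy lies beside it. Other wide rises were LCR85, a cysteine-rich peptide, from 1.46 to 62.7 FPKM, AT3G29252 from 1.98 to 37.3 FPKM, CYP705A30, a cytochrome P450, from 3.41 to 28.4 FPKM, and AT4G15160, a lipid transfer-like protein, from 4.84 to 43.8 FPKM. Seed genes were higher in 12 of 17, such as CRA1, a cruciferin, at 36.8 and 215 FPKM, and OLEO1, an oil body protein, at 4.89 and 27.6 FPKM. Their median log2 change of 1.51 was the highest of the lists other than extensin-like genes. Cold and abscisic acid response genes were higher in 6 of 22, including COR15B (log2 2.45), its neighbour COR15A (1.64), RD29A (0.86) and RD29B (0.95), and none was lower. Further falls were AT5G40590, a C1 domain protein, from 13.8 to 1.14 FPKM, MRD1 from 44.0 to 3.91 FPKM, uncertain because MRD1 overlaps HEI10, and KCS12, an enzyme of very long fatty acids, from 93.4 to 20.3 FPKM. Annotated genes also overlap AIR1, AT4G12545, MES17, COR15B, IAA5, EXPA7, EXPA18, WRKY29 and RRC1. Among further genes given in the text, the same holds for SFPS, OLEO1, RHS19, LAC17, AT4G20860, AT1G26250, AT1G30870 and GH3.9. Since the sources used here do not state strand-specific counting, reads of the partner could add to the values of all these genes.

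None of 35 light signalling genes was called, and the median log2 change was 0.01. Of 45 light-harvesting and photosystem genes only LHCB1.4 was called, at 595 and 1088 FPKM, which is uncertain because the LHCB1 genes are near-identical copies. Of 24 tetrapyrrole genes only DVR, a reductase of chlorophyll synthesis, was lower (log2 -0.63). Of 22 clock genes 4 were called, against 6.51% of all genes in either direction. LHY (log2 -0.82), LNK2 (-0.81) and RVE8 (-0.81) were lower and ELF4 (1.00) was higher, with LNK2 uncertain because it overlaps RPB5E. Of 30 splicing regulators only GRP7, an RNA-binding protein of the clock output, was called, at 109 and 177 FPKM. Its spliced reads were 4432, 3622 and 3846 RPM in wild type and 8578, 6220 and 8256 in sfps-2, apart between the groups.

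The dark libraries show which of these differences held in both light conditions. Of the events listed after red light 412 were also listed in the dark, which is 41.5% of the red list and 42.4% of the 972 events of the dark list. All but 1 of these, in SKL1, had the same direction, with median sizes of 9.45 points after red light and 9.70 in the dark. A limma interaction of genotype and light was fitted in 582 bins with reads listed for all 12 libraries. It called 0 (0%), and 28 had an unadjusted p under 0.05, with no other tool run for it. These bins were listed in both genotype comparisons, or in the comparisons of red light with dark of both genotypes. Most events listed in a single light condition were thus left out, and for them the difference was not tested. A difference smaller than the spread between libraries would not have been detected. For GSTZ1 the rise was 57.8 points after red light and 51.5 in the dark, for XBAT35 36.4 and 38.9, and for RIK the fall was 52.8 and 60.1.

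Expression was compared between the light conditions by another test, on group values. In the dark 1080 of 20698 genes were higher in sfps-2 (5.22%) and 411 lower (1.99%), 7.2% in all. The difference of the log2 changes was tested for 20399 genes with standard errors from the authors' Cuffdiff statistics, and 284 were more positive after red light (1.39%) and 909 more negative (4.46%) at an adjusted p under 0.05. These numbers rest on a rescaling of the standard errors, without which 44 and 262 genes passed. Of the 909, 342 were called lower after red light, 545 were called higher in the dark, and 180 were both. Root genes were among the more positive. In the dark none of 17 root cell markers was called, with a median of -0.23, and the change was more positive after red light in 7 of the 17. Root hair specific genes had a dark median of -0.05, and 6 of 14 were more positive after red light and 1 more negative. Of the 8 GH3 genes on the list, which is not the whole annotated family, 5 were more positive after red light and 1 more negative. GH3.1 was at 2.26 and 1.80 FPKM in the dark and differed by 4.53 on the log2 scale, and GH3.3 was at 40.2 and 39.2 FPKM and differed by 2.60. AIR1 was at 416 and 582 FPKM in the dark.

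Defence genes were more negative after red light. In the dark 14 of 23 were higher, with a median of 2.49, and 14 of 23 were more negative after red light. Berberine bridge enzyme-like genes were more negative in 10 of 18, lectin receptor kinases in 10 of 29 and WRKY genes in 14 of 54. PXMT1, a methyltransferase gene, fell from 30.5 to 5.67 FPKM after red light and rose from 7.44 to 201 FPKM in the dark. CYP71A12, an enzyme of indole defence compounds, fell from 6.97 to 3.01 FPKM and rose from 1.46 to 82.7 FPKM. The dark side of this contrast was uneven between libraries. In the dark, spliced RPM were summed over all listed dark events of a gene, exon events included. They count the reads that leave out a bin, so they also move with splicing. For 16 genes that were more negative after red light, were called higher in the dark and had junction reads, the median spliced RPM values were 302, 102.2 and 362 in the sfps-2 dark libraries against 70.3, 129 and 92.4 in wild type, with sfps-2 dark replicate 2 within the wild-type range of medians. Gene by gene that library was split. It held less than 0.5 of the spliced RPM of both other sfps-2 dark libraries in 9 of the 16, and it lay above all wild-type dark libraries in 7. In MLO6 the sfps-2 dark libraries held 279, 24.9 and 447 RPM against 52.3, 73.4 and 71.5 in wild type. In RBOHA they held 80.1, 1.78 and 96.2 against 21.3, 12.8 and 13.9, and in BBX27 742, 953 and 949 against 507, 906 and 568. The part of sfps-2 dark replicate 2 in the difference was not tested, since expression is given per group only. Seed genes were higher in 14 of 17 in the dark, with a median of 3.15, and 8 of 17 were more negative and 2 more positive after red light. Of 45 light-harvesting and photosystem genes 20 were higher and 3 lower in the dark, and 13 were more negative and 3 more positive after red light.

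**Figure D5:**
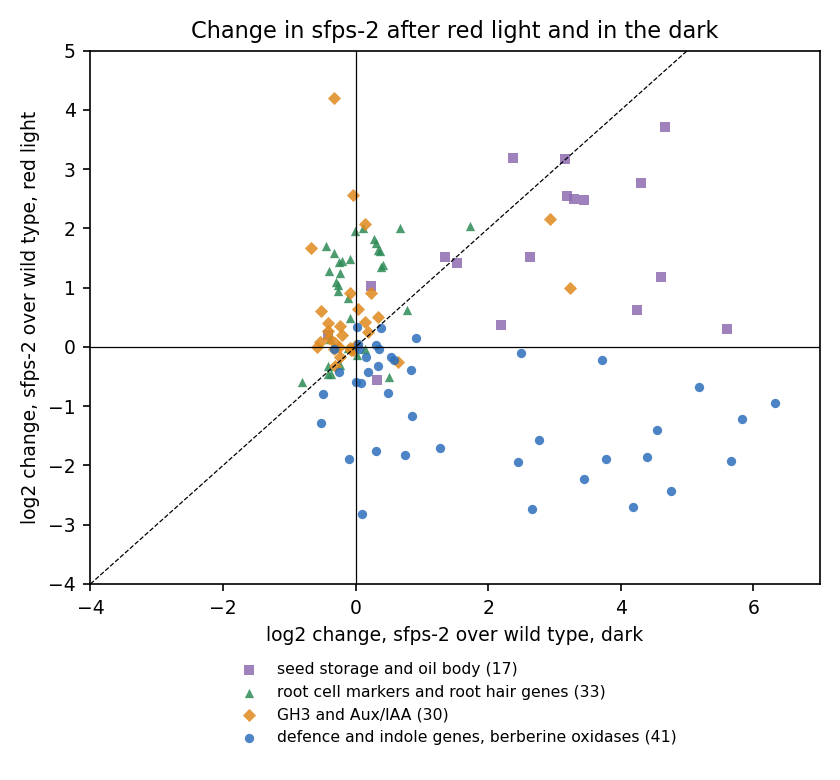
Log2 change of FPKM in sfps-2 over wild type after red light (vertical) and in the dark (horizontal), with 1 point per gene and a dashed line where both are equal. Defence genes and berberine oxidases lie mostly right of and below the centre, root genes mostly above it near a dark change of 0, and seed genes in the upper right.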

How the data were processed

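Stranded, rRNA-depleted RNA sequencing of whole seedlings was analysed for 6 libraries after red light, with the 6 dark libraries for contrast. Per the submitters' processing notes, reads were checked with FastQC, aligned with TopHat2 to TAIR10 and quantified with Cufflinks, and per the series' design text splicing bins were tested with ASpli. Versions are not given in the sources used here. The deposited expression tables hold FPKM per group, scaled by the authors within each table, with their p-value and q-value columns, whose smallest values are 5e-05 and 0.00138, and a test statistic used here as a score. The 756 tested genes at the smallest q cannot be ranked by it. The log2 change was computed here from the deposited FPKM, and the authors' log2 columns served only as checks. The deposited splicing sheet holds junction read counts per library and the authors' inclusion fraction per group. All 1984 shares recomputed here matched the deposited ones within 0.1 points. The total reads per library are unknown. Per-sample columns not used because they could not be mapped numbered 0.

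Points are differences of shares over the summed reads of a group, while means and SDs are over the 3 libraries. Limma 3.58.1 in R 4.3.3 was fitted to the log2 odds of each library after adding 0.5 to every read number, with Benjamini-Hochberg adjustment over the listed events, and to genotype by light in the bins listed for all libraries. For expression, standard errors came from dividing a log2 change by its Cuffdiff statistic and rescaling by the median, over genes, of the statistic over the z value that the deposited p implies (0.579 in both light conditions), and the difference of changes was tested by a two-sided normal p adjusted over 20399 genes. The quasi-likelihood test of edgeR 4.0.16 was an alternative. Tables were joined in Python 3.11.15. RefSeq's TAIR10.1 annotation matched 20805 of the 20867 tested genes. All fits were tested on simulated data.

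Named genes were the 15 largest rises and 15 largest falls of genes called and at 1 FPKM or more in each genotype, at most 4 members of each list and direction, the 12 largest events, the 4 largest of each event type, events of regulator genes, the 6 genes per direction with the smallest p for a difference between light conditions, and the longest runs of neighbouring genes. Not all were printed. Genes whose deposited statistic and p disagreed by over 1.5 times (345 of those compared) were left out of naming after their values were seen. The members and lists were chosen with earlier results of these data known. The lists of root hair specific, berberine bridge enzyme-like, laccase, extensin-like and lectin receptor kinase genes were drawn from RefSeq product names after values were seen, as were further genes given as examples. Same-numbered libraries of the genotypes did not deviate together, with correlations of 0.0078, -0.017 and 0.0082.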

Additional observations from a re-analysis of the deposited data

Results flagged for a closer look

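The effect of sfps-2 differed between red light and dark by a test of the difference itself in 284 genes that were more positive and 909 that were more negative after red light, which became 44 and 262 without the rescaling of the standard errors. Among those more positive, the log2 change after red light exceeded that in the dark by 3.39 in AIR1, 2.94 in AT4G12545, 3.26 in AT4G15160, 4.36 in LHCB1.4, 4.53 in GH3.1 and 2.60 in GH3.3. LHCB1.4 is uncertain because the LHCB1 genes are near-identical copies, and of the 45 light-harvesting and photosystem genes 13 were more negative and 3 more positive. Among those more negative, the difference was -7.18 in PXMT1, -5.69 in GSTF7, -5.36 in IGMT2, -6.26 in GSTF6, -7.58 in AT1G26380 and -7.03 in CYP71A12. Spliced RPM in the dark were counted over all listed dark events of a gene, exon events included. In 16 genes of the more negative kind that had junction reads, sfps-2 dark replicate 2 held less than 0.5 of the spliced RPM of both other sfps-2 dark libraries in 9 and lay above all wild-type dark libraries in 7.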

How the results depend on the processing

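No result reversed its direction under the settings tried. Requiring a fold of at least 2 left 434 higher and 331 lower genes, and requiring 1 FPKM in both groups left 434 higher and 554 lower. A change of 10 points or more left 212 events with a higher and 141 with a lower share, and an FDR under 0.01 left 427 and 191. Computing the standard errors without the scaling factor left 44 more positive and 262 more negative genes in the contrast of red light and dark. Without 1 library at a time, events called by limma numbered 434 to 486 higher and 225 to 233 lower, and listed events keeping 3 points 629 to 660 higher and 294 to 302 lower. The interaction called 0 to 1 bins, the 1 being found without sfps-2 dark replicate 1. The replicate numbers do not pair the libraries, and with the number as a replicate block limma called 504 events higher and 241 lower. edgeR called 598 and 276. The call was lost for 6 named genes with a pseudocount of 1 FPKM, namely IAA29, GH3.9, WRKY42, ACS4, ACS8 and AT1G26390. Expression, as a value per group, allowed no library to be left out, and genes near 1 FPKM rest on few reads of unknown number.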

Other observations

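Called genes also lay next to each other. Runs of 3 neighbouring tested genes called in the same direction numbered 5 higher and 9 lower, and runs of 2 numbered 41 higher and 42 lower. The higher runs held RSH4, AT1G30860 and AT1G30870 on chromosome 1 from 10985063 to 10993083, at log2 changes of 1.71, 1.14 and 1.57, and the carboxypeptidase-like genes scpl5, scpl2 and scpl4 from 27556168 to 27565177, at 2.83, 0.74 and 1.08. The last set is uncertain gene by gene, since scpl2 and scpl4 overlap. Percent of tested genes called was similar on the 5 chromosomes, from 6.11 on chromosome 1 to 7.14 on chromosome 4.

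Of the called genes, 14 were listed at 0 FPKM in 1 group, so no fold is given. LCR35 was listed at 0 in wild type and at 1.70 FPKM in sfps-2, and SWEET14, a sugar transporter, at 0 and 0.406 FPKM. LCR37 was at 3.70 FPKM in wild type and listed at 0 in sfps-2. FLC, the repressor of flowering, fell by 1.04 on the log2 scale and held 913, 782 and 937 spliced RPM in wild type against 413, 310 and 566 in sfps-2, with no overlap between the groups. The listed intron of FLC was more retained in sfps-2, which lowers spliced reads by itself, and AT5G01675 overlaps the gene. In the called genes with events, sfps-2 replicate 3 held the most spliced reads of its group in 22 of 31 higher and 17 of 33 lower genes.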
